A study of Mus musculus with 16 samples.

Results

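The mTOR, AMPK and autophagy genes examined here are 44 protein-coding genes that sense nutrients and energy and run the bulk degradation pathway of the cell, out of 21887 protein-coding genes on assembled chromosomes. They were taken by name at their RefSeq positions on the mouse build mm10. Each was searched for regions in which beta-hydroxybutyrylation of histone H3 lysine 9 was enriched in fasted mice. Genes without such a region were kept in every count. The study used C57BL/6J mice, aged to postnatal day 35, and set the occipital cortex of animals fasted for 48 h against that of animals of the same strain and age fed ad libitum. Chromatin of each feeding state was represented by 4 immunoprecipitated and 4 input libraries per the labels. The tissue was a cortex homogenate, so a change within cells and a change in the mix of cell types cannot be told apart. The authors' deposited lists held 8404 regions enriched in fasted mice and 1 region enriched in ad libitum mice, and this single region touched none (0) of the 44 genes. Each region carries a log likelihood ratio (log-LR) as its own deposited score, with no value per library, so no fold change, spread between mice or test between feeding states can be given.

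Histone beta-hydroxybutyrylation is an acyl mark derived from the ketone body beta-hydroxybutyrate, which the liver releases during fasting and which neurons and glia use as fuel. In fed cells the kinase mTOR, held in a complex with raptor, promotes protein synthesis and restrains autophagy. The tuberous sclerosis proteins keep its activator Rheb switched off. When energy is low, the kinase AMPK is activated by the upstream kinases LKB1 and CaMKK2, inhibits the raptor complex and activates the ULK kinases that start autophagosome formation. Later steps need a lipid kinase complex, lipid transfer proteins, a pair of ubiquitin-like conjugation systems and the small ATG8 proteins that are attached to the growing membrane.

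A fasting-enriched region overlapped the 1 kb on either side of a gene end in 17 of the 44 genes. This was 38.6% (95% Wilson interval 25.7 to 53.4), beside 11.9% of all protein-coding genes (2609 of 21887). A region in the gene body was present in 18 of 44 (40.9%, interval 27.7 to 55.6), beside 16.4% of all protein-coding genes, and 15 genes counted on both rules through the same regions. Regions in the body and at neither end were found for 3 of the 44 genes (6.82%, interval 2.35 to 18.2), beside 7.24% of all protein-coding genes. The share above the background was thus the one at gene ends, while the share with a region deeper inside the gene was near the background. In all, 20 genes had a region at an end or in the body and 24 had none. Intervals cover counting error over genes only, and the genes were chosen with earlier results of these data known.

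**Figure D1:**
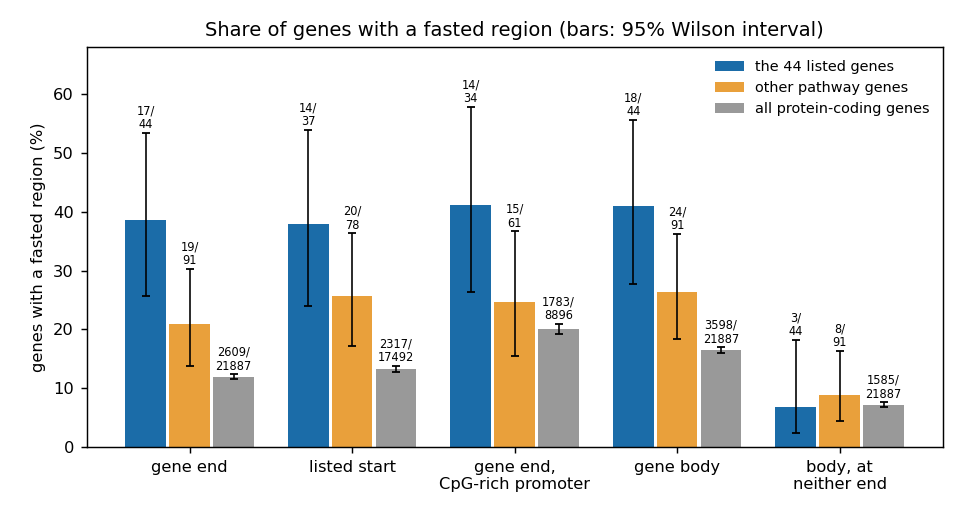
Percentage of genes with a fasting-enriched region (vertical axis) by where the region was required to lie (horizontal axis), for the 44 listed genes, for 91 other genes of the same pathways and for all protein-coding genes. Bars are shares, error lines are 95% Wilson intervals and the numbers are genes with a region over genes examined. At gene ends the 44 genes stand at 38.6% and all protein-coding genes at 11.9%, while the 3 groups lie between 6.82% and 8.79% for regions at neither end.

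The mTOR complexes and their substrates held the most genes with a region, 6 of 8 at a gene end. The Wilson interval was 40.9% to 92.85%, beside 11.9% of all protein-coding genes. Akt1s1, Rictor and Rps6kb1 lost theirs with a log-LR of at least 5 required. The region of highest log-LR in this role was that of Eif4ebp2, a translational repressor that mTOR switches off by phosphorylation and the main form in brain. It lay at chr10:61452451-61452599, 70 to 218 bp downstream of the listed transcription start, with a log-LR of 8.38. Its paralog Eif4ebp1 had a region at chr8:27260143-27260357 with a log-LR of 7.61, of which 31 of 215 bp lay inside the gene. By log-LR, the regions of Eif4ebp2 and Eif4ebp1 ranked 819 and 1116 of the 8404 fasting-enriched regions. Rptor, which encodes the substrate-binding subunit raptor, had a pair of regions 69 bp apart, at chr11:119603171-119603432 (log-LR 4.57) and chr11:119603502-119603621 (log-LR 5.79), both within the first 716 bp of a gene of 296.7 kb. Rictor, which encodes the defining subunit of the other mTOR complex, had a region at chr15:6709157-6709368 with a log-LR of 4.59, at 776 to 987 bp downstream of its listed start. Akt1s1 encodes PRAS40, an inhibitor bound to raptor. Its region, at chr7:44850113-44850278 with a log-LR of 4.52, lay at -259 to -94 bp from the listed start (negative is upstream), although inside the annotated span of the gene. The region of Rps6kb1, the ribosomal S6 kinase gene, at chr11:86544330-86544548, had a log-LR of only 3.58. Mtor itself and Mlst8, which encodes a subunit common to both complexes, had no region at an end or in the body.

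Upstream of mTOR, 2 of 3 genes had a region at an end (Wilson interval 20.8% to 93.85%, beside 11.9% of all protein-coding genes). Tsc1, which encodes the scaffold hamartin, had a region at chr2:28641424-28641742 with a log-LR of 5.86. Tsc2, which encodes its partner tuberin with the catalytic domain that switches Rheb off, had none, and the nearest fasting-enriched region was 17.4 kb away at Slc9a3r2. Rheb had a pair of regions around its start, 79 bp apart, with a log-LR of 3.47 at chr5:24842218-24842364 and of 4.95 at chr5:24842444-24842563. The region with the lower value covered the listed start and the other lay wholly upstream of the gene. 

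Of the 8 AMPK genes, 2 had a region at a gene end (Wilson interval 7.15% to 59.1%, beside 11.9% of all protein-coding genes). These were the upstream kinase genes. None (0) of the 6 subunit genes had one at a gene end. Beside a background share of 11.9%, 0 of 6 does not set the subunit genes apart from other genes. The contrast with the upstream kinase genes was not tested. Stk11, which encodes LKB1, had a region at chr10:80115807-80116044 with a log-LR of 7.89, 12 to 249 bp downstream of the listed start. Camkk2, the calcium-dependent activator, had the widest region of the set, 400 bp at chr5:122778810-122779209, with a log-LR of 6.22. Among the subunits, Prkaa2, a catalytic subunit gene, held a region at chr4:105064204-105064341 with a log-LR of 6.72. This region lay deep in the gene, 45557 to 45694 bp downstream of its listed start. Prkag2, a regulatory subunit gene of 243.5 kb, held a region at chr5:25099859-25100094 with a log-LR of 5.12. It was not at an annotated gene end, yet lay 548 to 783 bp downstream of one of the 3 starts listed for this gene, and it also overlapped the non-coding gene Gm42232. Prkaa1, Prkab1, Prkab2 and Prkag1 had no region. Prkag2 and Rheb are close neighbours on chromosome 5, with 20.4 kb between their annotated spans, and their regions were separate.

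Among the genes that start autophagy, 2 of 4 had a region at an end (Wilson interval 15.0% to 85.0%, beside 11.9% of all protein-coding genes). Both, Ulk2 and Rb1cc1, lost theirs with a log-LR of at least 5 required. Ulk2, an autophagy-initiating kinase gene, had a pair of regions on either side of its listed start, at chr11:61854633-61854890 (log-LR 4.22) and chr11:61855213-61855368 (log-LR 4.95). Its paralog Ulk1 had none, and the nearest region was 188.3 kb away. Rb1cc1, which encodes the scaffold FIP200 of the ULK complex, had a region of low score at chr1:6214757-6214885 (log-LR 4.04), which also overlapped the non-coding gene 4732440D04Rik. Atg13, another subunit of that complex, had none, and the region nearest to it, 19.6 kb away, was at the end of Ambra1, a further autophagy regulator.

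Of the 6 conjugation genes, 3 had a region at an end (Wilson interval 18.8% to 81.2%, beside 11.9% of all protein-coding genes). Atg3, the conjugating enzyme gene for ATG8 proteins, had one at chr16:45158970-45159181 with a log-LR of 4.84. Atg4b, the protease gene that trims and releases ATG8 proteins, had one at chr1:93754803-93755020 with a log-LR of 5.52. The region counted for Atg12, the ubiquitin-like modifier gene, had the highest log-LR of the whole set, 8.65 at chr18:46742038-46742274, but lay 314 bp outside Atg12 and inside its neighbour Ap3s1. Atg5, Atg7 and Atg16l1, which act in the same conjugation reactions, had none.

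Of the 3 lipid transfer and scrambling genes, 1 had a region at an end (Wilson interval 6.15% to 79.2%, beside 11.9% of all protein-coding genes). Another 1 had a region only in the body, beside 7.24% of all protein-coding genes with a region in the body and at neither end. The region counted for the scramblase gene Atg9a (chr1:75179692-75179972, log-LR 5.14) lay 889 bp beyond the gene and inside Abcb6. It was 420 to 700 bp downstream of the listed start of Abcb6 and 12038 to 12318 bp downstream of that of Atg9a. Atg2b, a lipid transfer protein gene, had a region of log-LR 7.14 inside the gene at chr12:105672272-105672405, 12836 to 12969 bp downstream of the start, and its paralog Atg2a had none. The 5 genes for the lipid kinase complex and for binding of its product, namely Becn1, Pik3c3, Atg14, Wipi1 and Wipi2, held no region at an end or in the body (0 of 5, upper Wilson bound 43.5%). None (0) of the 5 ATG8 family genes held one either, namely Map1lc3a, Map1lc3b, Gabarap, Gabarapl1 and Gabarapl2. With a gene-end region in 11.9% of all protein-coding genes, 0 of 5 does not set either group apart from other genes. Sqstm1, which encodes the cargo receptor p62, had a region at chr11:50210586-50210733 with a log-LR of 5.35, 87 to 234 bp downstream of its start. Tfeb, the transcription factor gene that drives lysosomal and autophagy genes, had none, and its nearest region was 107.6 kb away.

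**Figure D2:**
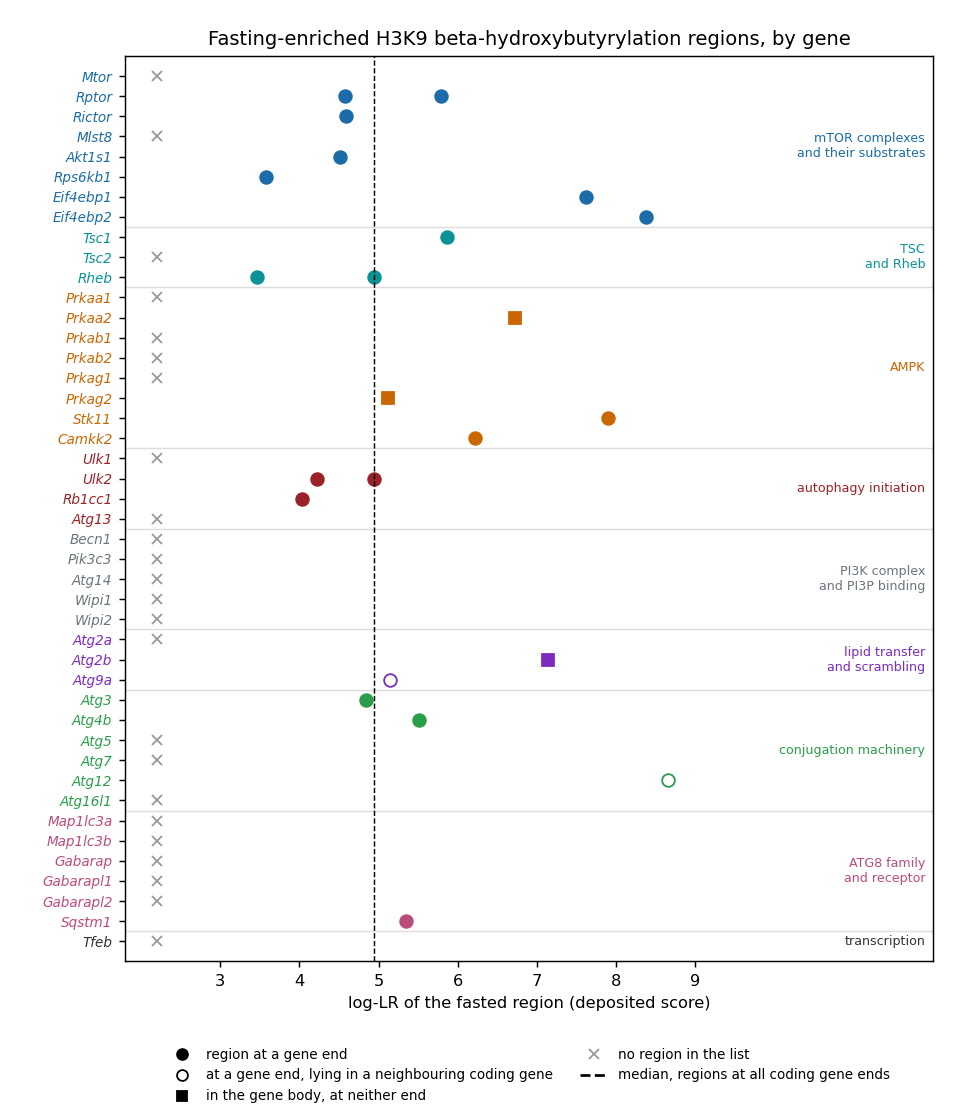
Deposited log-LR (horizontal axis) of every fasting-enriched region at an end or in the body of the 44 genes (vertical axis, grouped and coloured by role). Circles are regions at a gene end, open circles lie in a neighbouring coding gene (Atg9a, Atg12), squares lie in the body and at neither end, crosses mark genes with no region and are placed left of the scale. The dashed line is the median of 4.94 for regions at all protein-coding gene ends, and the 20 regions at ends of the 44 genes lie between 3.47 and 8.65.

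The scores of these regions were ordinary for gene ends. The 20 regions at ends of the 44 genes had a median log-LR of 5.04 (quartiles 4.56 and 5.95), beside 4.94 (quartiles 4.18 and 6.07) for the 2474 regions at all protein-coding gene ends. Of the 20, 12 were above that median, and none reached 10. Their median width was 213.5 bp, beside 205 bp. The highest-ranked, counted for Atg12, was number 739 of 8404 by log-LR, followed by those of Eif4ebp2 at 819, Stk11 at 997 and Eif4ebp1 at 1116. The lowest-ranked was the region on the start of Rheb, at 8138.

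The bases around 4 of these starts are shown because a deposited region covers part of each. The start base itself is covered in Atg4b and Rheb, while Stk11 and Ulk2 were added as the next by log-LR with a region in the window. Each line gives the 300 bases from 250 before the listed transcription start to the start base and the 49 that follow, read 5′ to 3′ on the gene's own strand, from RefSeq on GRCm38.p6. Capitals mark bases covered by a fasting-enriched region. The window of Atg4b is chr1:93754655-93754954 on the plus strand, that of Rheb is chr5:24842312-24842611 on the minus strand, that of Stk11 is chr10:80115545-80115844 on the plus strand and that of Ulk2 is chr11:61855043-61855342 on the minus strand.
Atg4b: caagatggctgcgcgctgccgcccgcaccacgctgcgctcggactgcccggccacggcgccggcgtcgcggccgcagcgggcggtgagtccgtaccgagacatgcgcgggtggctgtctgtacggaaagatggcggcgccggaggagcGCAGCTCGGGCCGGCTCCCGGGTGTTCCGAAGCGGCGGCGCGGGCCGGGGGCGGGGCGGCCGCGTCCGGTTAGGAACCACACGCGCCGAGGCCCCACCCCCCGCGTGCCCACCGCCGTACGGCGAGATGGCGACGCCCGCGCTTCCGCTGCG
Rheb: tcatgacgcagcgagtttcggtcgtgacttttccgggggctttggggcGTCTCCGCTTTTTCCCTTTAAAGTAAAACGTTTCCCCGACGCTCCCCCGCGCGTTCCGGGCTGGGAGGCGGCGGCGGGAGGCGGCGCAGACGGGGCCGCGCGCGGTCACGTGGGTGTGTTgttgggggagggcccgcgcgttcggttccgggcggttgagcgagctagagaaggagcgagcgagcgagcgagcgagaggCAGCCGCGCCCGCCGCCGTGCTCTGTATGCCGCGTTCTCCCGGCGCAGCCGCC
Stk11: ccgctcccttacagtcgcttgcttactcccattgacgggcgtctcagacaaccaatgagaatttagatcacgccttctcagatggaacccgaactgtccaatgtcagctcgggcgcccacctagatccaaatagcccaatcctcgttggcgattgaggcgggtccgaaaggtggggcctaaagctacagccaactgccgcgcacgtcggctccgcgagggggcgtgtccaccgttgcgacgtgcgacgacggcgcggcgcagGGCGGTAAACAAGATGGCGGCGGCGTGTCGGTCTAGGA
Ulk2: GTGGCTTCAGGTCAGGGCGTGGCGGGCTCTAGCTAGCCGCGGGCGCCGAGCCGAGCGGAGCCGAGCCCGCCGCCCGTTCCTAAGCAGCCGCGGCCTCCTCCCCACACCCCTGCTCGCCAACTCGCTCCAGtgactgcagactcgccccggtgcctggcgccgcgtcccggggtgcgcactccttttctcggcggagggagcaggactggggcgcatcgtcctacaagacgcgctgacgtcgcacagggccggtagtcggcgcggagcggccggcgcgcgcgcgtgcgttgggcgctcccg

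In Atg4b 152 of the 300 bases were covered, including the start, and in Rheb 173 were covered by its pair of regions. These were the only 2 of the 37 genes with a listed start whose start base lay within a region, a share not computed over all genes. In Stk11 the region began just past the start and covered the last 38 bases of the window, and in Ulk2 the upstream region covered 130 bases. The window of Atg4b held 55 CG dinucleotides, 29 of them within the region, and that of Rheb held 47, with 29 covered. Among the 37 genes with a listed start, Akt1s1 was the only other with a region in this window, where 157 bases were covered.

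Position relative to the start was close to that over all genes. For genes with a listed start, 16 of 17 pairings of a gene with a gene-end region were at the start end of the gene (94.1%), and the exception was Atg9a. Over all protein-coding genes the share was 94.6%. Counting regions within 1 kb of any listed start, 14 of 37 genes held one (37.8%, Wilson interval 24.1 to 53.9), beside 13.2% of all protein-coding genes with a listed start. This count gains Prkag2 and loses Atg9a. The centres of these 17 regions lay between -198 and 881 bp of the start, with a median of 246 bp downstream. The median over all protein-coding genes was 251 bp downstream. Centres were downstream of the start for 14 of the 17 regions, and upstream only for Akt1s1 and for 1 region each of Rheb and Ulk2.

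**Figure D3:**
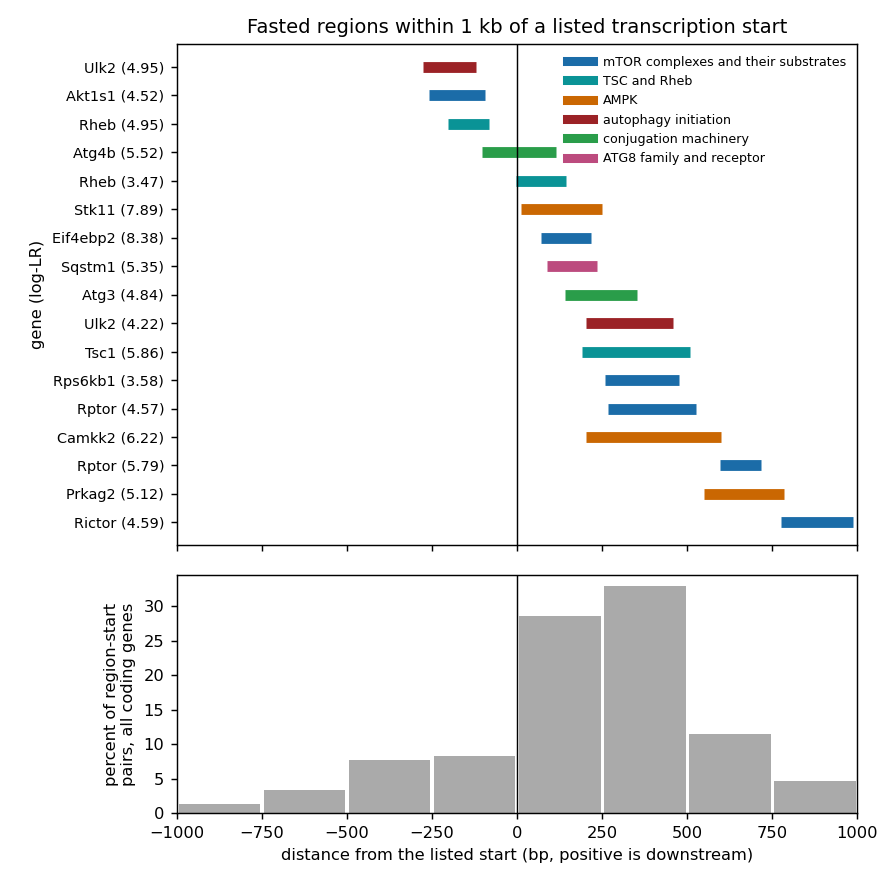
Upper panel, extent of the 17 fasting-enriched regions within 1 kb of a listed start of the 44 genes (horizontal axis, bp from the start, positive downstream), 1 bar for each region with its log-LR in brackets and coloured by role. Lower panel, percentage of region and start pairings over all protein-coding genes in classes of 250 bp by the centre of the region. Most bars lie downstream of the start, and the fullest class over all genes is 250 to 500 bp downstream with 32.9%.

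Regions at 5 of the 17 genes were also within 1 kb of an end of another protein-coding gene, a share not computed over all genes. The region of Atg4b covered the listed starts of both Atg4b and Thap4, which run in opposite directions with 67 bp between their starts. The region of Atg3 lay at -508 to -297 bp from the listed start of Slc35a5, and that of Rps6kb1 lay at -661 to -443 bp from the listed start of Tubd1. Both of these were inside the autophagy or mTOR gene and outside the neighbour. The remaining 2 were those of Atg12 and Atg9a, which lay wholly in Ap3s1 and Abcb6. Without regions that lie in a neighbouring gene the count was 15 of 44 (34.1%). The share of all protein-coding genes under this rule was not computed, so this count has no background beside it.

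Genes without a region mostly lay far from one. For the 24 genes the nearest fasting-enriched region was at a median distance of 84.3 kb, from 4.42 kb for Map1lc3b to 552.3 kb for Pik3c3, beside a median of 99.9 kb for the 17920 protein-coding genes without a region. Of the 24 genes, 2 had one closer than 10 kb, Map1lc3b and Atg16l1 (9.31 kb), beside 1128 of the 17920. The region near Map1lc3b had a log-LR of 8.12 and that near Atg16l1 had 6.25, and neither overlapped a protein-coding gene. Mtor was 68.7 kb from its nearest region, at Tardbp, and Becn1 was 61.9 kb from its nearest, at Ezh1. No gene lay in the margin just outside the 1 kb window: the region of Atg9a, 889 bp from the gene, was the last inside it, and that near Map1lc3b the first outside.

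**Figure D4:**
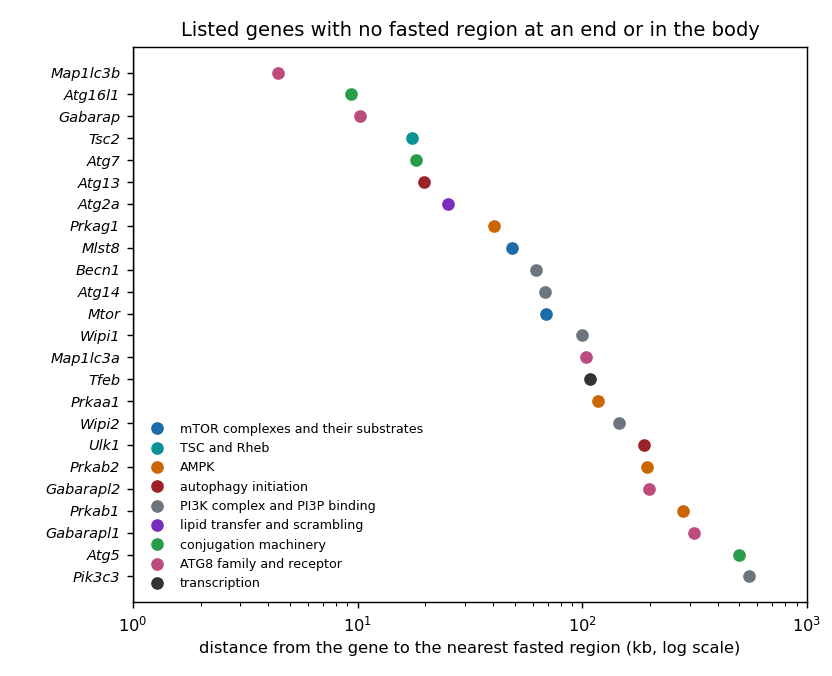
Distance from each of the 24 genes without a fasting-enriched region to the nearest one (horizontal axis, kb on a log scale), with genes on the vertical axis and coloured by role. Map1lc3b stands nearest at 4.42 kb and Pik3c3 farthest at 552.3 kb. Of the 24, 11 are at least 100 kb away, beside 8953 of the 17920 protein-coding genes without a region.

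The 44 genes were long, with a median of 35.3 kb beside 17.2 kb for all protein-coding genes. At gene ends, where the searched window does not grow with the gene, 6 of 16 genes shorter than 20 kb had a region (37.5%), beside 9.01% of all protein-coding genes of that length. From 20 to 50 kb it was 5 of 14 (35.7%, beside 715 of 5094), from 50 to 100 kb 5 of 10 (beside 17.0%), and above 100 kb 1 of 4 (Rptor, beside 16.5%). Regions in the body and at neither end were found only above 50 kb, in 2 of 10 genes from 50 to 100 kb (beside 12.9%) and 1 of 4 above 100 kb (beside 30.1%).

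The promoters of these genes were rich in CG dinucleotides, a feature the choice of genes did not use. The CpG ratio, observed over expected CG count in the 300 base window, had a median of 0.976 in the 14 genes with both a gene-end region and a listed start. It was 0.909 in the 23 genes with a listed start and no gene-end region. Over all protein-coding genes the medians were 0.839 with a region and 0.545 without. With only genes of a ratio of at least 0.6 counted, 14 of 34 genes of the set had a region at an end (41.2%, Wilson interval 26.4 to 57.8), beside 20.0% of all such protein-coding genes. Without this limit the shares were 38.6% and 11.9%. Whether CpG content relates to the share of the set was not tested, and the limit was chosen after the data were seen. The 3 genes below this ratio, Atg7, Atg14 and Gabarap, held none, and among all protein-coding genes below it 3.84% did.

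Motifs were searched on both strands of the same windows as a description. CACGTG, the core of sites bound by Tfeb and other E-box factors, was found in 5 of 37 genes (13.5%), beside 8.91% of all protein-coding genes. Of these genes, Atg3 and Rheb had a gene-end region, and Atg5, Atg7 and Atg14 did not. Among them, the copy in Rheb, at bases -96 to -91 with the start as base 0, lay within its upstream region. The longer palindromic CLEAR element of Tfeb targets, which contains CACGTG, was in none (0) of the 37 and in 0.469% of all genes. The forkhead motif GTAAACA occurred only in Stk11 (1 of 37, beside 3.45% of all genes), from base 16 to base 22 and within its region. TGACGTCA, the full cyclic AMP response element, occurred only in Atg5 (1 of 37, beside 2.54%), and TGAGTCA, an AP-1 site, in none (0) of the 37, beside 5.40%. GGGCGG, a GC box, was in 26 of 37 (70.3%), beside 49.2%, and over all genes with a gene-end region in 73.5%. One copy of GGGCGG in Stk11 shares its last base with the GTAAACA match.

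Further genes of the same pathways, 91 in a list made apart from the 44, held a gene-end region in 19 (20.9%, Wilson interval 13.8 to 30.3). This share lay between those of the 44 genes and of all protein-coding genes, an order that was lost with regions of a log-LR of at least 5, where it was 5.495% beside 5.903% of all protein-coding genes. By group, regions were found in 7 of 21 other autophagy genes (Wilson interval 17.2% to 54.6%) and 3 of 10 autophagy receptors (10.8% to 60.3%). For the amino acid and lysosome arm of mTOR signalling it was 5 of 27 (8.18% to 36.7%). Upstream or downstream of mTOR it was 2 of 11 (5.14% to 47.7%). Further subunits and assembly factors of the mTOR complexes stood at 1 of 6 (3.005% to 56.35%). AMPK partners and substrates stood at 1 of 10 (1.79% to 40.4%), and Tfeb family and lysosome genes at 0 of 6 (upper bound 39.0%). The share of all protein-coding genes, 11.9%, lies inside every interval but that of the other autophagy genes. Of those, only Vmp1 kept a region at a log-LR of at least 5. Differences between groups were not tested. The highest log-LR was 9.78 at Vmp1, which encodes a membrane protein needed for autophagosome formation, in the higher of a pair of regions at an end shared with Ptrh2. Next came Nprl3, a subunit gene of the complex that restrains mTOR when amino acids are scarce, with 7.25, Eif4g1, a translation initiation scaffold gene, with 6.83, and Tti1, an assembly factor gene for mTOR complexes, with 5.67. The region of Tti1 lay outside the gene and is shared with Rprd1b. In the nutrient-sensing arm, Rraga (3.90), Rragd (3.62), Depdc5 (4.99) and Castor2 (3.45) had a region.

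The region list offers little check of the labelled tissue. Of 13 marker genes of brain cell types, 3 had a gene-end region (Wilson interval 8.18% to 50.3%), namely Syt1, Mbp and Cnp. By cell type this was 1 of 5 neuronal and 2 of 3 oligodendrocyte markers. None (0) of 4 markers of blood, liver and muscle had one (upper Wilson bound 49.0%). Beside 11.9% of all protein-coding genes, these counts do not set either group apart from other genes. Markers of astrocytes and microglia had none.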

How the data were processed

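H3K9 beta-hydroxybutyrylation was profiled in mouse occipital cortex by chromatin immunoprecipitation and sequencing. The submitters' processing notes name Bowtie2, MACS2 and the build mm10, with no versions or roles. The authors deposited a region list per direction, per the file headers with a log-LR, used here as a score for describing and ranking. The sources used here do not give its log base, the scaling or the pooling, and the depth is unknown. A difference in depth or immunoprecipitation yield between feeding states would change how many regions are listed.

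Starts were read as counted from 0 and are printed from 1. Gene spans came from RefSeq GRCm38.p6, without exons. Strand and starts came from the RefSeq promoter table, which matched 37 of the 44 genes. Atg12, Atg16l1, Becn1, Eif4ebp1, Map1lc3a, Pik3c3 and Rb1cc1 were not matched. Overlap of 1 bp counted. Opposite-strand windows were reverse complements in 1894 overlaps, with the number of overlaps compared not given. The overlap step was tested on simulated data.

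The genes, lists and motifs were chosen with earlier results of these data known. Every gene of the set was named. Other pathway genes were named for the 4 highest log-LR values, and the nutrient-sensing genes, nearest-region genes and markers after their values were seen. The rule for printing promoters, starts within a region, took Atg4b and Rheb. Stk11 and Ulk2, the next by log-LR in the window, and the CpG limit of 0.6 were chosen afterwards. No set or replicate test was run. The code used pandas 2.3.3 and numpy 2.4.6 under Python 3.11.15, with scipy 1.17.1 for intervals and matplotlib 3.10.9 for figures.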

Additional observations from a re-analysis of the deposited data

How the results depend on the processing

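The count of 17 genes with a gene-end region (38.6%, beside 11.9% of all protein-coding genes) was 14 with a 500 bp window (31.8%, beside 9.55%). It stayed at 17 with a 3 kb window, while the share of all protein-coding genes rose to 14.7%. By region centres it was 16 (36.4%, beside 11.6%), and with regions within 1 kb merged 17 (beside 11.9%). It was 13 of 37 at the start end only (35.1%, beside 11.5%). At listed starts it was 14 of 37 (37.8%, beside 13.2%), a setting chosen after seeing the data. Without regions in a neighbouring gene it was 15, a setting not run over all protein-coding genes. The count moved with the log-LR limit. At a log-LR of at least 5 it was 10 of 44 (22.7%, beside 5.90% of all protein-coding genes), losing Akt1s1, Atg3, Rb1cc1, Rheb, Rictor, Rps6kb1 and Ulk2, and the count in the gene body was 11 of 44 (beside 8.80% of all). The other pathway genes were then at 5 of 91 (5.495%), so their share no longer lay above that of all protein-coding genes. At a log-LR of at least 10 all 3 counts were 0, and 40 of all 21887 protein-coding genes still had a gene-end region. The median log-LR of gene-end regions was 6.04 at a limit of 5, a shift that the limit itself makes, and 4.95 to 5.35 under the other alternatives that moved it. The body count was 5 for bodies over 1 kb from either end (11.4%, beside 7.79% of all protein-coding genes), which include parts of the Akt1s1 and Rictor regions. No paired analysis was possible because neither list gives values for single libraries, and leaving out replicates was not run for the same reason. The log-LR is the only measure of confidence in a region here.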
